A study of Arabidopsis thaliana with 8 samples.

Results

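The CYP78A genes form a small family of Arabidopsis thaliana, and all 6 members listed, CYP78A5 to CYP78A10, were measured, among 27444 nuclear protein-coding genes. They were chosen by family name, with their site coverage in the 2 sorted cell populations already known, so every difference between the populations at these genes is a description and not a test. Chromatin accessibility was measured with ATAC-seq, which relies on a transposase that inserts sequencing adapters into open DNA. The cells were protoplasts from inflorescence apices of soil-grown DRNL::erGFP ap1cal plants. All libraries carry the ap1 and cal mutations, which replace flowers by proliferating meristems, and the reporter, in which the promoter of DRNL drives a GFP held in the endoplasmic reticulum. GFP-positive cells (GFP+, the lateral organ founder cells) and GFP-negative cells (GFP-, the meristem cells left after founder cells are depleted) were sorted from pools of 700 to 900 plants. The sample records give 95000 to 300000 protoplasts for GFP-positive cells, and up to 300000 with no lower number for GFP-negative cells. The effect of this input on the sites was not tested. Each population has 3 libraries, which the series calls biological replicates, and the 2 libraries of sheared chromatin were not analysed here. The authors deposited 1 list of open sites, called transposase hypersensitive sites (THSs), for each sorted library. No read counts come with the lists, and sequencing depth is therefore unknown.

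CYP78A enzymes are cytochrome P450 monooxygenases found in plants, which use oxygen to modify small molecules. The best studied member, CYP78A5 or KLUH, is expressed at the edge of shoot meristems and in young organs, where it promotes growth by a signal that acts beyond the cells that make it. Loss of CYP78A5 gives smaller organs and faster leaf initiation, and CYP78A7 acts redundantly with it. CYP78A6 (EOD3) and CYP78A9 promote the growth of seeds and fruits.

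The libraries differed little in size but not in the same order as the groups. They held 24156 to 26216 THSs over 17.3 to 19.6 Mb in GFP-positive cells, and 26001 to 28757 THSs over 17.8 to 19.4 Mb in GFP-negative cells. Among 7 founder and organ initiation genes, 5 were covered more in each GFP-positive than in any GFP-negative library, and the mean covered percent of the list was 50.1% to 55.4% against 35.2% to 38.2%. At the others, ANT and AS1, the groups overlapped. DRNL itself is in this list, and its promoter drives the GFP by which the cells were sorted. It had 55.7%, 59.0% and 66.8% in GFP-positive and 39.1%, 35.8% and 29.1% in GFP-negative libraries. AP1 and CAL, both mutated in this line, were also covered more in all GFP-positive libraries. The 3 photosynthesis markers had a list mean of 36.0% to 42.0% against 45.1% to 47.9%, in the opposite direction. Of these 3, the groups were apart at 2 and overlapped at RBCS1A, with means of 71.2% and 70.6%. The 4 boundary markers had a list mean of 33.7% to 39.7% against 29.9% to 33.0%. Of these 4, the groups were apart at CUC2 alone, and LOB had a lower mean in GFP-positive cells (1.48% against 3.7%). The list means of 4 meristem and 3 epidermal markers overlapped between the groups. Single markers were apart, with GFP-positive above, at STM (means of 28.0% and 21.9%) and at FDH (21.5% and 16.5%). WUS, CLV3, KNAT1 and PDF1 had lower means in GFP-positive cells, and ATML1 a higher one, with overlap. No marker was without a THS in all 6 libraries. LOB had none in GFP-positive replicates 1 and 3 and GFP-negative replicate 2, CLV3 had none in GFP-positive replicate 3, and PUCHI had none in GFP-negative replicate 1. The list means of the founder, boundary and photosynthesis markers moved with the groups, and those of the meristem and epidermal markers did not. The part of the markers in the values of the CYP78A genes was not tested. A change in accessibility per cell and a change in the mixture of cells cannot be told apart in such libraries.

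THSs were counted for a CYP78A gene where they overlapped it or lay within 3000 bp. The 6 genes had 163 such sites over the 6 libraries, from 2 to 3 per library at CYP78A5 and CYP78A10 to 5 to 8 per library at CYP78A8. The counted site farthest from its gene lay 2966 bp away, and the nearest site left out lay 3032 bp away. Sites that shared at least 1 bp were joined into 27 regions, and 20 of these were present in every library and 2 in a single library. There were 0 regions with a THS in all 3 libraries of a population and in none of the other population. Of the 27219 regions joined in the same way over the 5 chromosomes, 0.422% had this pattern for GFP-positive and 2.10% for GFP-negative cells. In 3 of the 27 regions, 1 each at CYP78A5, CYP78A6 and CYP78A7, the summed length of the THSs was greater in every GFP-positive than in any GFP-negative library, and in 0 regions the reverse. Over all regions these shares were 3.49% and 5.86%. The gene table gives no strand, so the sides of a gene are called low and high by their coordinates, and promoter and 3' side are not separated.

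**Figure D1:**
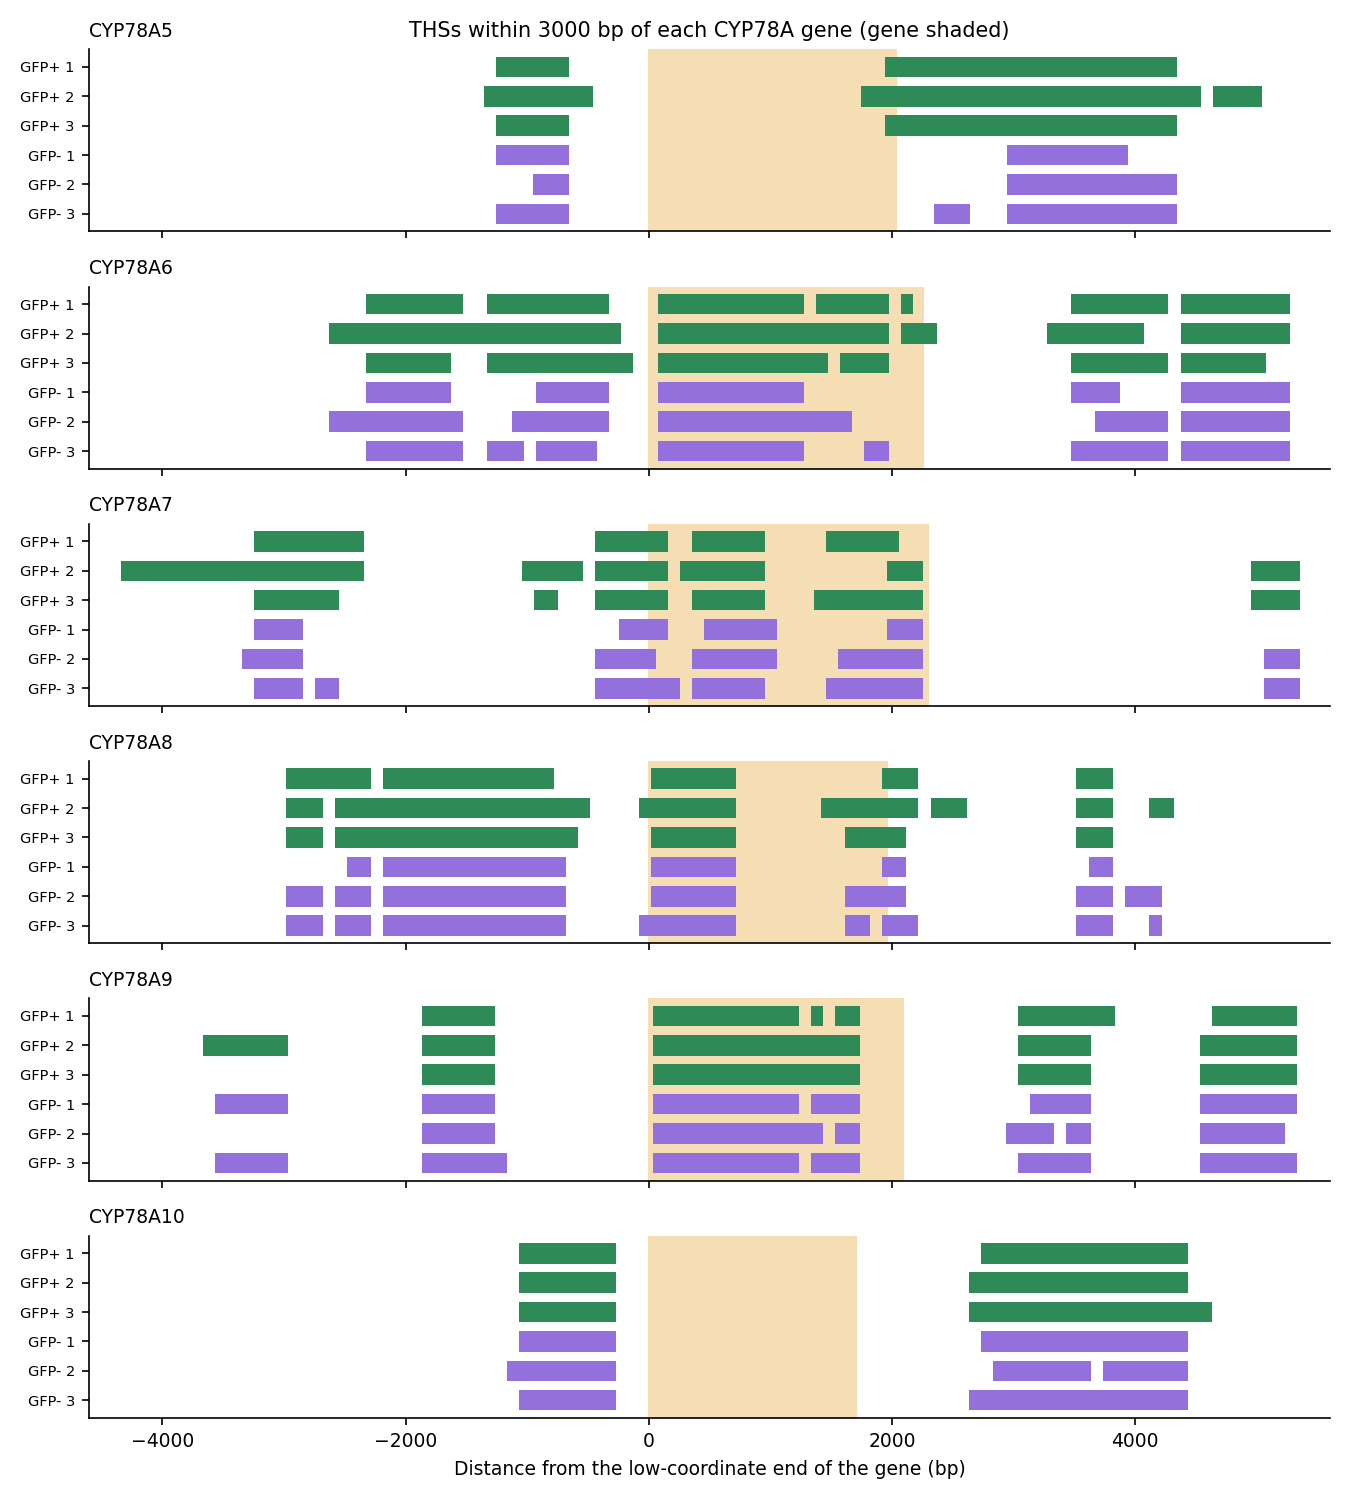
THSs (bars) of each library within 3000 bp of the 6 CYP78A genes, with the distance in bp from the low-coordinate end of the gene on the x axis and the gene shaded. Green bars are GFP-positive and purple bars GFP-negative libraries. At CYP78A5 the high-side site reaches the gene in all 3 GFP-positive libraries and in no GFP-negative library, and CYP78A10 has no site inside the gene in any library.

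CYP78A5 (AT1G13710) was the member with the largest difference, and the difference lay beside one end of the gene. A strong site on the high side was 2400, 2800 and 2400 bp wide in GFP-positive replicates 1, 2 and 3. It ran from 4704601 to 4707000 on chromosome 1 (TAIR10) in replicates 1 and 3 and from 4704401 to 4707200 in replicate 2, so that it entered the gene in all 3. In the GFP-negative libraries the main site began at 4705601, 906 bp beyond the gene, and was 1000, 1400 and 1400 bp wide. GFP-negative replicate 3 had a further site of 300 bp, from 4705001 to 4705300, at percentile 0.706 of its own list by score. The first 1000 bp on this side were covered completely in each GFP-positive library, and over 9.4%, 9.4% and 39.4% in the GFP-negative libraries. The site kept a core from 4705601 to 4706600 that was covered in all 6 libraries. No other annotated gene lay within 3000 bp of CYP78A5: the nearest, a lncRNA gene and a tRNA gene, were 4489 and 4940 bp away.

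Stretches covered in the 3 founder-cell libraries and in none of the GFP-negative libraries were counted in the 100 bp windows in which the sites are given. Within 1000 bp of CYP78A5 there were 7 such windows of 39, in runs from 4704601 to 4705000 and from 4705301 to 4705600, of which 94 bp lay in the gene. CYP78A6 had 1 such window of 41, and the other 4 members had none. The reverse pattern was found in 0 windows of any member. Over all tested genes 0.175% of windows had the first pattern and 0.412% the reverse, and 4.87% and 8.00% of genes had at least 1 such window. The CYP78A5 site was among the strongest of each list: by the authors' score, it lay at percentiles 96.8 to 97.4 of the GFP-positive and 91.8 to 94.1 of the GFP-negative lists. On the low side a weaker site of 300 to 900 bp was listed in all 6 libraries, with a stretch from 4701701 to 4702000 shared by all.

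Over the gene and 1000 bp on each side, CYP78A5 was covered over 35.6%, 45.5% and 35.6% in GFP-positive and 10.9%, 9.76% and 18.3% in GFP-negative libraries. Every founder-cell library lay above every GFP-negative library, with means of 38.9% ± 5.72 and 13.0% ± 4.64 (SD, n = 3 each), a difference of 26.0 percentage points. Little of the gene itself was covered: 4.61%, 14.4% and 4.61% of it in GFP-positive libraries, and no site was listed in it in the GFP-negative libraries. Averaged over all 6 libraries, its body was covered over 3.94%, more than the bodies of 31.6% of tested genes. In the authors' deposited table CYP78A5 stands in the column of 121 genes with dTHS-up sites, and it is the only family member there. In the authors' deposited table no member stands in the column of 392 genes with dTHS-down sites. All 6 stand in both columns of genes with THSs, but these columns are large, with 25995 genes for GFP-positive and 21098 for GFP-negative cells. That table gives no values, and it describes the same contrast.

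CYP78A6 (AT2G46660), which promotes seed growth, was open over most of its body. The window was covered over 60.5%, 69.9% and 62.9% in GFP-positive and 42.3%, 53.5% and 44.7% in GFP-negative libraries. The groups did not overlap, with means of 64.4% ± 4.90 and 46.8% ± 5.86 (SD, n = 3 each), 17.6 percentage points apart. The difference lay in the gene body more than beside it. The body was covered over 84.4%, 92.3% and 79.9% against 53.3%, 71.0% and 62.2%, again without overlap, while the low side overlapped between the groups. A site that started at 19153401 on chromosome 2 in all 6 libraries formed the core. It extended to 19154600 in every library, and sites up to 19155300 filled 1800, 1900 and 1800 bp of the region in GFP-positive and 1200, 1600 and 1400 bp in GFP-negative libraries. By score the core site lay between percentiles 94.2 and 95.8 of each list. Its low-side region, from 19150701 to 19153200, also covered part of CB5-C, a cytochrome b5 gene whose end lay 588 bp from CYP78A6, so low-side coverage cannot be assigned to CYP78A6 alone.

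**Figure D2:**
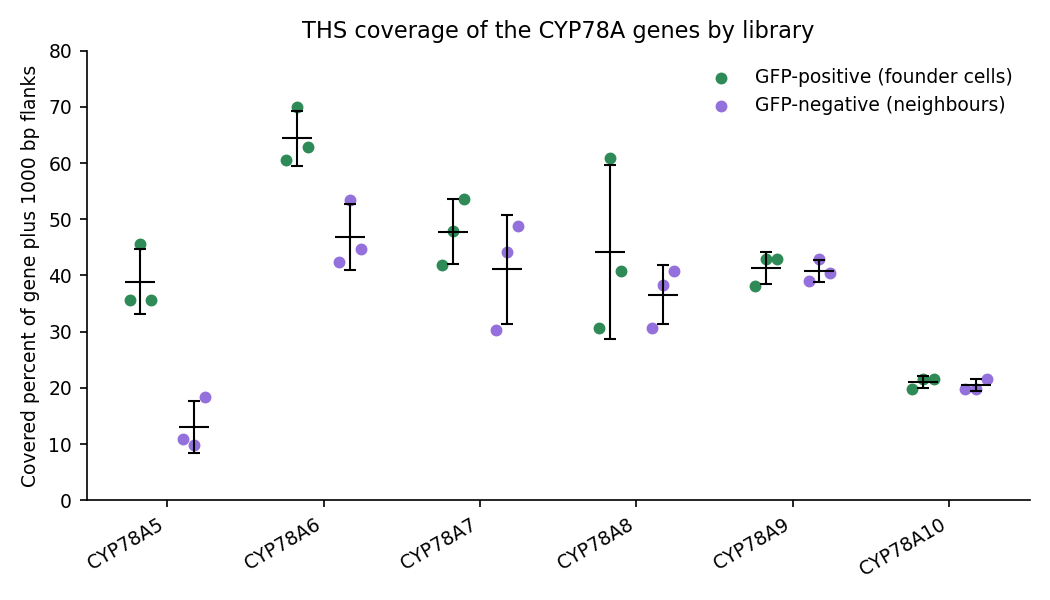
Covered percent of the window (gene plus 1000 bp on each side) of each CYP78A gene, with 1 point per library, the mean as a bar and the SD as whiskers (n = 3 per group). The groups are apart at CYP78A5 (35.6% to 45.5% against 9.76% to 18.3%) and CYP78A6 (60.5% to 69.9% against 42.3% to 53.5%), and overlap at the other 4 genes.

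At the remaining 4 members the groups overlapped. CYP78A7 (AT5G09970), the partner of CYP78A5, was covered over 41.9%, 47.9% and 53.6% in GFP-positive and 30.3%, 44.2% and 48.9% in GFP-negative libraries, and 6.64 percentage points separated the means. Its body had the same mean in both groups, 60.5% ± 11.0 and 60.5% ± 13.3 (SD, n = 3 each). On the low side to 1000 bp the groups overlapped, at 44.4%, 90.0% and 64.4% against 24.4%, 44.4% and 44.4%. How many of all genes have groups apart on a single side was not computed. On the low side to 3000 bp the groups did not overlap, at 36.7%, 53.3% and 36.7% against 13.3%, 20.0% and 26.7%. A region from 3107601 to 3109600 on chromosome 5, which reaches beyond the 3000 bp, gave 656, 656 and 456 bp of this coverage in GFP-positive and 156, 156 and 356 bp in GFP-negative libraries. A region from 3110901 to 3111400 added 0, 500 and 200 bp in GFP-positive libraries and nothing in GFP-negative libraries. The mean differences of these regions were 366.7 and 233.3 bp. The whole sites of the first region measured 900, 2000 and 700 bp in GFP-positive and 400, 500 and 600 bp in GFP-negative libraries. The sites counted at 600 bp are the sum of a pair of shorter sites in GFP-negative replicate 3. Within the 3000 bp, 1 window of 100 bp in the first region, from 3109101 to 3109200, was covered in the 3 GFP-positive libraries and in no GFP-negative library. The end of the first region away from CYP78A7 overlapped AT5G09960, in GFP-positive replicate 2 alone. Sites in the body of CYP78A7 were of middling strength, with the highest per library at percentiles 47.8 to 59.4 of its list.

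CYP78A8 (AT1G01190) was the member whose libraries of 1 group differed most. It was covered over 30.7%, 61.0% and 40.8% in GFP-positive and 30.7%, 38.3% and 40.8% in GFP-negative libraries. GFP-positive replicate 2, the library with the longest covered length (19.6 Mb), stood above the rest, and the other 2 GFP-positive libraries had the same values as GFP-negative replicates 1 and 3. The difference of 7.57 points between the means became -0.841 points without that library. All 6 libraries shared a site over the low end of the gene, from 83001 to 83700 on chromosome 1, and a stretch from 80801 to 82200 on the low side.

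CYP78A9 (AT3G61880), known for large fruits when overexpressed, was alike in the populations and its libraries varied little. It was covered over 38.1%, 43.0% and 43.0% in GFP-positive and 39.1%, 43.0% and 40.5% in GFP-negative libraries, with means 0.472 points apart. Nearly all of this lay in the gene: the body was covered over 71.7%, 81.3% and 81.3% in GFP-positive and 76.5% in each GFP-negative library, and the low side within 1000 bp had no site in any library. The body site started at 22905901 on chromosome 3 in all 6 libraries, and it lay at percentiles 95.7 to 97.0 of the lists. Over the gene and 3000 bp on each side the sites of library pairs shared 0.897 of their joint length for the 6 pairs within groups and 0.905 for the 9 pairs between groups. For CYP78A5 these values were 0.764 and 0.570.

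CYP78A10 (AT1G74110) had no THS in its body in any library. It was covered over 19.8%, 21.7% and 21.7% in GFP-positive and 19.8%, 19.8% and 21.7% in GFP-negative libraries, all of it beside the gene. A site from 27865601 to 27866400 on chromosome 1, 266 bp from the gene, had the same ends in 5 libraries and was 100 bp longer in GFP-negative replicate 2. It reached the end of SOT16, a sulfotransferase gene 972 bp away. A wider region on the high side, from 27869301 to 27871300, began 932 bp beyond the gene. It reached AT1G74120 in GFP-positive replicate 3 alone.

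The members differed among themselves in where they were open. The mean covered percent of the gene body in GFP-positive libraries was 85.5% at CYP78A6, 78.1% at CYP78A9, 60.5% at CYP78A7 and 51.9% at CYP78A8. In GFP-negative libraries CYP78A9 came first, with 76.5%, before CYP78A6 with 62.2%, CYP78A7 with 60.5% and CYP78A8 with 46.8%. Averaged over all 6 libraries, these bodies were covered more than those of 91.6% to 96.3% of the 21886 genes that had coverage in at least 2 libraries, whose median was 8.02%. The body of CYP78A5 averaged 7.88% in founder cells and was without a site in the GFP-negative libraries, and that of CYP78A10 had no site in either group. CYP78A6, CYP78A8 and CYP78A9 each had a stretch open in all 6 libraries that began within the low 100 bp of the gene, at 73, 17 and 34 bp from its end, and was 1200, 700 and 1200 bp long. At CYP78A7 the longest stretch open in all libraries within the body began at 456 bp and was 500 bp long. A shorter one lay across the low end of the gene, and another of 100 bp began at 1956 bp.

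**Figure D3:**
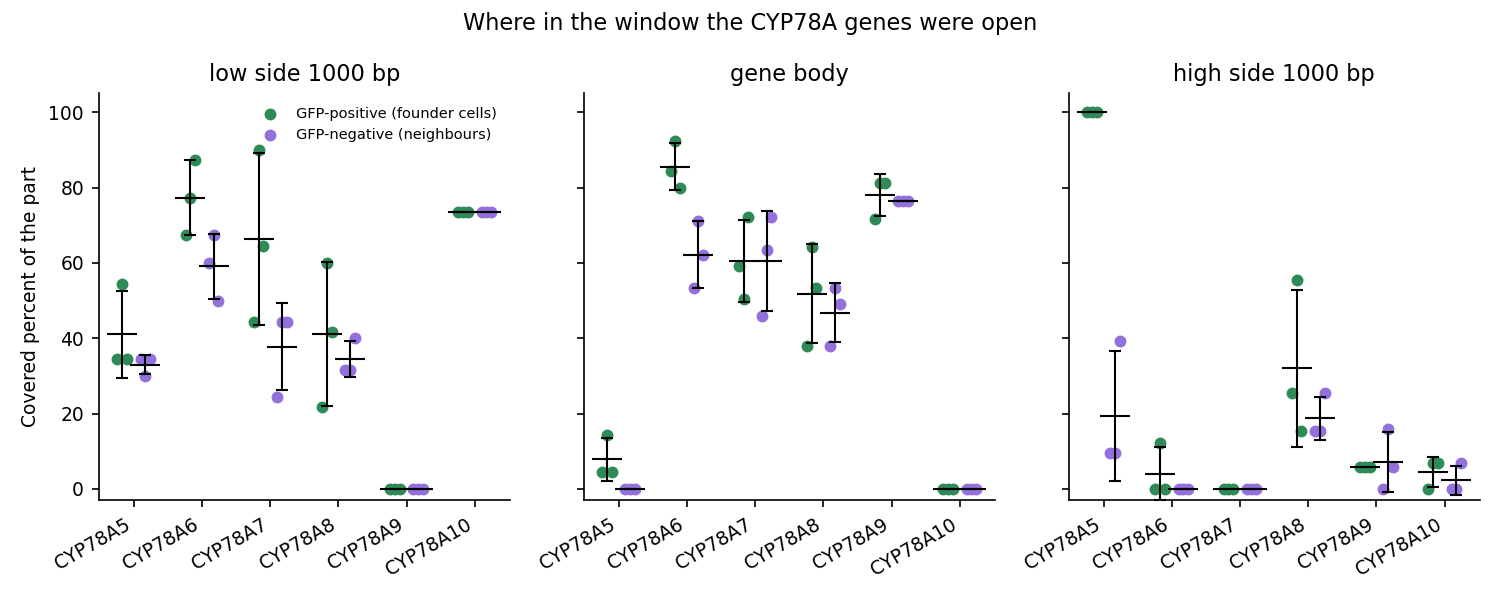
Covered percent of the low side (1000 bp), the gene body and the high side (1000 bp) of each CYP78A gene, with 1 point per library, the mean as a bar and the SD as whiskers (n = 3 per group). The high side of CYP78A5 is covered completely in the 3 GFP-positive libraries and over 9.4% to 39.4% in the GFP-negative libraries, while the bodies of CYP78A6 to CYP78A9 are open in both groups.

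By mean level of the whole window in founder cells, the order was CYP78A6, CYP78A7, CYP78A8, CYP78A9, CYP78A5 and CYP78A10. CYP78A6 lay above CYP78A7 in all libraries and CYP78A5 above CYP78A10, while the ranges of the other neighbours in this order overlapped. In GFP-negative cells the order was CYP78A6, CYP78A7, CYP78A9, CYP78A8, CYP78A10 and CYP78A5. There the range of CYP78A8 lay above that of CYP78A10, and that of CYP78A10 above that of CYP78A5, and the other neighbouring ranges overlapped. CYP78A5 thus lay above CYP78A10 in every GFP-positive library and below it in every GFP-negative library.

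All 6 members passed the filter of coverage in at least 2 libraries, and they are described beside all 21886 genes that did. The groups were apart, with GFP-positive above, at 2 of the 6 members, CYP78A5 and CYP78A6, and at 3.61% of all genes. GFP-positive below was found at 0 members and at 6.63% of all genes. The median difference was 7.11 points over the members and 0 over all genes, and the mean of the 6 windows was 37.8%, 48.1% and 42.9% in GFP-positive and 28.9%, 34.8% and 35.8% in GFP-negative libraries. In a limma fit over all genes, 0 of the 6 members passed a Benjamini-Hochberg adjusted p of 0.05, where 1.48% of genes passed, 0.347% as higher and 1.14% as lower in GFP-positive cells. The unadjusted p was under 0.05 at 2 members and at 10.8% of genes. The limma adjusted p was 0.0710 for CYP78A5 and 0.199 for CYP78A6. With the same number of top-scoring sites from each library (24156), CYP78A5 passed, with a limma adjusted p of 0.0407 (the range over all alternatives was 0.0407 to 0.650). That setting called 187 genes as higher and 274 as lower in GFP-positive cells, against 76 and 249 in the main fit. Since this contrast was known when the members were chosen, nothing is read from these values.

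The genes with the most similar profile to CYP78A5 over the 6 libraries were STY1, NGA1 and ASPGB1, by the root mean square difference in covered percent. They lay 3.75, 4.59 and 5.18 percentage points from it. For CYP78A6 the nearest were YAB3, AT3G48570 and KCS5, at 3.90, 4.35 and 4.84 points. STY1, for instance, was covered over 29.7%, 46.1% and 39.1% in GFP-positive and 6.36%, 13.4% and 20.4% in GFP-negative libraries.

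Other regulators of organ and seed growth differed in both directions, from -12.4 points at ARGOS to 15.8 points at OSR1. Of 28 listed genes, which include the ubiquitin pathway of DA1 and BB and the NGAL repressors, of which NGAL2 acts upstream of CYP78A5, 27 passed the filter. In the limma fit over all genes 0 passed in either direction, and 6 had an unadjusted p under 0.05, which 10.8% of all genes had. The groups were apart with founder cells above at 3 of the 27 and below at 2, against 3.61% and 6.63% of all genes. The median difference was 1.38 points, and 0 over all genes. The largest difference in each direction was at a member of 1 family of small growth proteins. OSR1 had 74.5%, 81.2% and 64.3% in GFP-positive and 57.5% in GFP-negative replicates 1, 2 and 3 (limma adjusted p = 0.291). ARGOS had 0%, 10.1% and 20.2% against 20.2%, 23.6% and 23.6% (limma adjusted p = 0.517). NGAL2 was widely open in both groups, at 86.9% ± 1.20 and 85.5% ± 2.07 (SD, n = 3 each).

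Among P450 genes that make or break down hormones, 15 of 18 passed the filter. In limma over all genes 1 passed, as lower in GFP-positive cells (1.14% of all genes were). CYP707A2, which encodes an abscisic acid 8'-hydroxylase, was lower in founder cells, at 13.1%, 16.0% and 14.5% against 43.1%, 43.1% and 40.2% (limma adjusted p = 0.00217). CYP90D1 of brassinosteroid synthesis had the next largest difference, with 26.0%, 28.0% and 28.0% against 39.9%, 43.9% and 47.9% (limma adjusted p = 0.0561). The median difference of this list was 0 points. The groups were apart with GFP-positive above at 0 and below at 2 of the 15, against 3.61% and 6.63% of all genes. An unadjusted limma p under 0.05 was found at 3 of the 15 and at 10.8% of all genes. Of all 218 other genes with a CYP symbol, 145 passed the filter, 1 was higher (0.347% of all genes were) and 4 were lower (1.14% of all genes were). These 5 genes, CYP87A2 above and CYP96A1, CYP82F1, CYP708A3 and CYP707A2 below, were named after their values were seen. The limma adjusted p of CYP87A2 was 0.0228, and its call was lost without GFP-positive replicate 2 or 3 or GFP-negative replicate 1 or 2. The call of CYP82F1 was lost without GFP-positive replicate 1, 2 or 3, with limma adjusted p of up to 0.0802. That of CYP708A3 was lost when any of the 6 libraries was left out, with limma adjusted p of 0.0581 to 0.107. Over all alternatives tried the limma adjusted p was 5.45e-08 to 0.149 for CYP87A2, 0.000253 to 0.494 for CYP82F1, 0.0342 to 0.701 for CYP708A3, 7.14e-06 to 0.112 for CYP96A1 and 0.00217 to 0.0990 for CYP707A2. Each of the 5 calls was thus lost under at least 1 alternative. Over this CYP list the groups were apart with GFP-positive above at 5 and below at 18 of the 145 genes, against 3.61% and 6.63% of all genes.

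**Figure D4:**
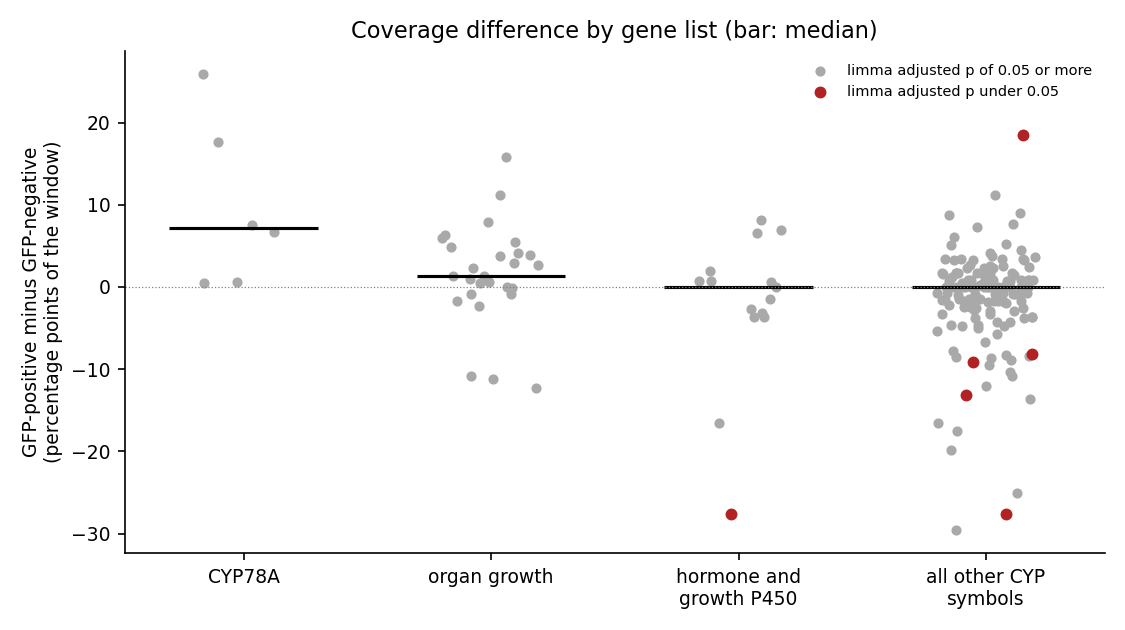
Difference in covered percent of the window (GFP-positive minus GFP-negative, in percentage points) for each gene of 4 lists that passed the filter, with a bar at the median and red points for a limma adjusted p under 0.05. The CYP78A genes run from 0.472 to 26.0 points, and CYP707A2, drawn in both P450 lists, lies at -27.7.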

How the data were processed

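The authors deposited 1 list of THSs per sorted library, with chromosome, start, end and a score on a scale that is not stated. The submitters' processing notes name the TAIR10 genome, SICER, bedtools 2.17.0, Picard 1.105, SAMtools 0.1.19 and BWA 0.7. Their roles, any transposase shift, filters and thresholds were not given in the sources used here. Depth is unknown. Sites are whole 100 bp windows, so edges are no finer than that, and score percentiles describe sites within a list only. The authors' deposited gene table holds identifiers (unit: other).

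Gene positions came from a RefSeq table of TAIR10.1, used here for distances. At least 99.8% of the authors' GFP-negative genes per chromosome had a GFP-negative site within 1000 bp, and at most 81.9% after a shift of 5000 bp. No sequence was used.

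The covered percent of each gene plus 1000 bp was computed in Python 3.11.15 and fitted over all genes with limma 3.58.1 (R 4.3.3; eBayes with a trend, no block, coverage in at least 2 libraries, Benjamini-Hochberg threshold 0.05). The fit was tried on simulated data with continuous noise. Such data lack the repeated values of real coverage, so they cannot show whether the fit holds for these. Coverage takes few distinct values, and libraries of a group are often identical, so adjusted p-values may be too small. Where nothing shows that replicates came from separate plants, p measures the spread of these libraries. Members and lists were chosen with earlier results of these data known. Named are the 6 members, DRNL, AP1 and CAL, list genes called by limma (up to 5 a direction) or, where fewer than 3 were called, also the 2 largest differences, and the 3 nearest profiles of the 2 most different members.

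Alternatives were flanks of 2000 and 3000 bp, the body or flanks alone, equal numbers of top-scoring sites, each library left out, a replicate block, no filter, no trend and a region covered over 50%.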

Additional observations from a re-analysis of the deposited data

How the results depend on the processing

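The direction at CYP78A5 and CYP78A6 was kept in every window and site set tried. Leaving out a library could not change it, since each GFP-positive value lay above each GFP-negative value at both genes. The CYP78A5 difference was 19.8 points with flanks of 2000 bp, 18.6 with 3000 bp, 7.88 in the body, 44.4 in the flanks alone and 22.7 to 28.6 with single libraries left out. That of CYP78A6 was 23.4 points in the body, 11.1 in the flanks and 14.9 to 20.9 with single libraries left out; the cause was not tested. In flanks alone 1 member, CYP78A5, had groups apart. With any library left out 2 had, which for CYP78A5 and CYP78A6 was fixed by their separation over all libraries. The share of all genes was not computed for these settings. With libraries left out the ranges were 1.21 to 10.5 points for CYP78A7, -0.841 to 14.3 for CYP78A8, -0.407 to 2.10 for CYP78A9 and 0.306 to 1.23 for CYP78A10, which had 1.73 points with flanks of 3000 bp. The mean of the 6 members was 6.32 to 13.4 points over all alternatives. Regions with a site in every library numbered 14 when 50% of the region had to be covered, 17 with top-scoring sites and 20 to 21 with libraries left out, of which the latter 2 settings were added after the data had been seen.

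Over all genes limma called 76 as higher and 249 as lower. The higher calls were 43 with flanks of 3000 bp, 125 in flanks alone, 187 with top-scoring sites and 84 to 208 with libraries left out, and the lower calls 141 to 443. With libraries of the same number as a replicate block, 1 was higher and 29 were lower, and the 5 called CYP genes had limma adjusted p of 0.0634 to 0.209, so that none of their calls was kept. No label says what the numbers share, and same-numbered libraries deviated together only in part, with correlations of 0.161, 0.0672 and 0.0389, against -0.145 to 0.0853 for libraries of different numbers. GFP-positive replicate 2 correlated best with GFP-negative replicate 3, not with its own number. No member passed limma in any of these settings, the block included, except CYP78A5 with top-scoring sites. Unknown depth limits all of this: a region without a listed site may still be open below the authors' threshold.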
